A study of Caenorhabditis elegans with 45 samples.

Results

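ECA701 and ECA722 are natural isolates (wild strains) of the nematode Caenorhabditis elegans, and their transcriptomes were set against each other directly, without the laboratory strain N2. The comparison covered 6 of the 45 libraries of the series: all 3 ECA701 and all 3 ECA722 libraries labelled as parental. Both groups carried the genotype label wildtype and came from selfed hermaphrodites, taken whole on day 1 of adulthood, when most animals were gravid. Male worms had been removed by hand, and each group came from at least 3 plates. The series covers 7 wild strains, N2, and the F1 hybrids of each wild strain with N2, with 3 libraries per group. For a check with N2 as the shared other parent, 3 ECA701 x N2 F1 and 3 ECA722 x N2 F1 libraries were used. They came from day 1 adult hermaphrodites born to wild males and N2 fog-2 mothers, which make no self sperm. The other 15 wild parental libraries, from EG4348, DL238, CB4856, QX1211 and XZ1516, gave a range against which single values are set. RNA was poly(A)-selected and sequenced with a strand-specific kit, after extraction in 3 batches that each held 1 replicate of every strain.

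C. elegans reproduces mostly by selfing. A hermaphrodite makes sperm first, as a larva, and then switches to oocytes, so the sperm transcripts found in a young adult depend on how recently that switch took place and on what is left of the sperm-making germline. The intestine of the adult makes yolk, which oocytes take up through the receptor RME-2, and gravid animals also carry embryos with transcripts of their own. Wild strains differ most on the chromosome arms, where large, fast-evolving gene families such as the F-box, MATH, C-type lectin and nuclear receptor genes lie and where some genes are missing or unrecognisable in single strains.

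The 6 parental libraries held 55857406 to 74814057 estimated fragments, and the 6 F1 libraries 37236299 to 81964179. Of the fragments that could be tied to 1 allele, 99.9% carried the wild allele in each of the 6 parental libraries, and 48.5% to 49.2% did so in the F1 libraries, as their labels say. Log2 levels correlated at 0.995 to 0.998 between parental replicates. Vitellogenin and oocyte transcripts were abundant in all 6, while the summed level of 8 male neuron and tail genes was 3.36, 2.45 and 3.44 CPM in ECA701 and 1.35, 1.24 and 1.67 CPM in ECA722. CPM stands for the counts of a gene per 1000000 counts of its library, after scaling for library composition. The ECA722 x N2 F1 library of replicate 1 stood apart: its levels correlated at 0.991 with those of the other replicates of its cross, which correlated at 0.998 with each other, and its major sperm protein transcripts summed to 24.5 CPM, against 209 and 181 CPM in those replicates. Many counts and single values in F1 worms are therefore given with and without it. Those given in a single form include it. Nothing ties the replicates to separate plates or cultures, so the p-values measure the spread between libraries, which may be technical. In whole animals, fewer cells of a type and less RNA per cell cannot be told apart.

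ECA701 and ECA722 differed at a majority of the genes tested. With edgeR's quasi-likelihood test and Benjamini-Hochberg adjustment, 8256 of 15266 genes had an adjusted p under 0.05 (54.1%). Of these, 4311 were higher in ECA701 (28.2% of the genes tested) and 3945 were lower (25.8%). Counts of list members below are to be read against these shares. Most of the differences were small: the median size among the called genes was 0.61 on the log2 scale, and the median log2 fold change over all tested genes was 0.01. At least 2-fold differences were called for 1717 genes higher in ECA701 (11.2%) and 1234 genes lower in ECA701 (8.08%). The values of the 3 ECA701 libraries lay wholly above those of the 3 ECA722 libraries for 4883 genes (32%) and wholly below them for 4542 genes (29.8%). All fold changes below are ECA701 minus ECA722 on the log2 scale, with their standard error. CPM values are not scaled for gene length, so they compare one gene between libraries and not one gene with another.

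**Figure D1:**
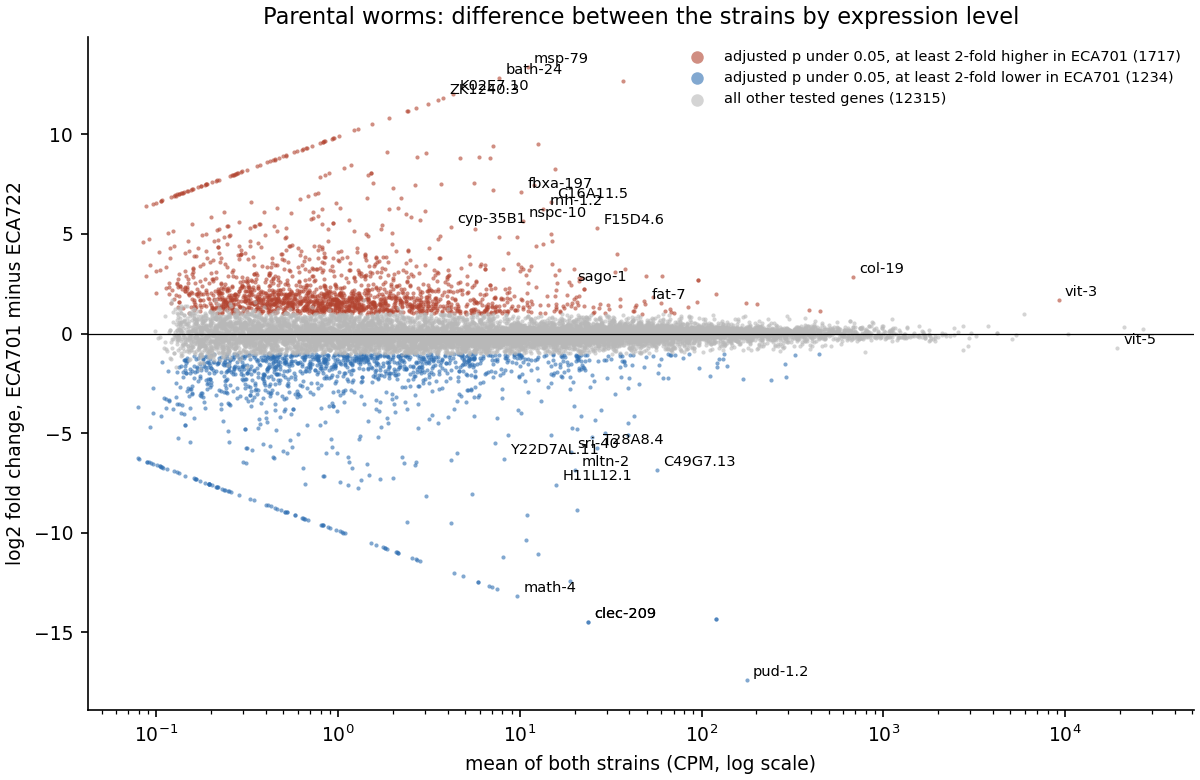
Log2 fold change of each of the 15266 tested genes (ECA701 minus ECA722 parental worms, vertical axis) against its mean level over both strains (CPM, log scale), with genes at least 2-fold higher in ECA701 in red (1717), at least 2-fold lower in blue (1234) and all other genes in grey. The 2-fold differences occur at all levels, and genes at 0 in one strain form the outer edges of the cloud.

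The genes with the largest differences that were still measurable in the lower strain came from varied families. fbxa-197, an F-box gene (WBGene00011513, chromosome V, 15867673 to 15869051, plus strand, coordinates of build WBcel235, which equals ce11), had 20.8, 20.5 and 19.3 CPM in ECA701 and 0.0819, 0.175 and 0.180 CPM in ECA722. The groups lay far apart, with a log2 fold change of 7.10 ± 0.14 (adjusted p = 4.85e-19). rnh-1.2 (WBGene00014163, chromosome II, 9841095 to 9842035, minus strand), which encodes an RNase H, had 26.2, 27.2 and 26.1 CPM in ECA701 and 0.300, 0.365 and 0.361 CPM in ECA722, a log2 fold change of 6.27 ± 0.11 (adjusted p = 2.82e-21). Here ECA722 was the strain out of range: the 15 other wild libraries held 19.7 to 28.8 CPM, and ECA701 lay inside that range. C16A11.5 (WBGene00015818, chromosome II, 4223305 to 4226338, plus strand) had 28.7, 29.7 and 29.7 CPM in ECA701 and 0.328, 0.248 and 0.333 CPM in ECA722 (log2 fold change 6.58 ± 0.13, adjusted p = 2.70e-20). The other wild strains were themselves divided over this gene, with 0.116 to 39.2 CPM. F15D4.6 (WBGene00008863, chromosome II, 13249186 to 13250063, plus strand) had 53.6, 51.5 and 50.2 CPM in ECA701 and 1.49, 1.17 and 1.28 CPM in ECA722, with a log2 fold change of 5.30 ± 0.09 (adjusted p = 2.07e-21). ECA722 resembled most of the other wild libraries at this gene, whose median was 1.33 CPM and whose highest value was 67.0 CPM.

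2 further genes on this side of the ranking belong to families of similar sequences. cyp-35B1 (WBGene00019472, chromosome V, 3939032 to 3941237, plus strand), a cytochrome P450 gene that overlaps K07C6.16 on the opposite strand, had 8.16, 7.75 and 8.69 CPM in ECA701 and 0.164, 0.262 and 0.167 CPM in ECA722 (log2 fold change 5.37 ± 0.19, adjusted p = 4.90e-16). All fragments counted for it matched it alone. nspc-10 (WBGene00009640, chromosome X, 12343609 to 12344043, plus strand), one of the nematode-specific peptide genes of group C, had 22.8, 19.2 and 19.0 CPM in ECA701 and 0.287, 0.394 and 0.528 CPM in ECA722 (log2 fold change 5.65 ± 0.21, adjusted p = 8.35e-16). 70.0% of its fragments matched it alone, and with gene totals from the deposited allele-aware counts its difference turned round to -0.30. Summed with nspc-12 and nspc-15, which share fragments with it, the level was 48.4, 39.3 and 39.5 CPM in ECA701 and 12.6, 9.26 and 12.3 CPM in ECA722, a ratio of 3.73 with no overlap.

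Genes lower in ECA701 reached the same sizes. mltn-2 (WBGene00013126, chromosome I, 11018496 to 11024593, minus strand) had 0.499, 0.225 and 0.302 CPM in ECA701 and 37.0, 41.9 and 41.1 CPM in ECA722, a log2 fold change of -6.85 ± 0.25 (adjusted p = 4.99e-16). ECA722 was far above every other wild library, of which the highest held 0.790 CPM. C49G7.13 (WBGene00269425, chromosome V, 4036111 to 4038054, plus strand) had 0.959, 1.26 and 0.692 CPM in ECA701 and 110.0, 116 and 112 CPM in ECA722 (log2 fold change -6.83 ± 0.12, adjusted p = 7.74e-20). T28A8.4 (WBGene00012110, chromosome III, 13503679 to 13505536, plus strand) had 1.16, 0.952 and 0.781 CPM in ECA701 and 49.5, 53.6 and 53.1 CPM in ECA722 (log2 fold change -5.73 ± 0.09, adjusted p = 6.38e-22). At T28A8.4 the odd strain was ECA701, since the other wild libraries held 49.2 to 68.3 CPM. Y22D7AL.11 (WBGene00021249, chromosome III, 1630781 to 1634370, minus strand, opposite Y22D7AL.4) had 0.236, 0.198 and 0.177 CPM in ECA701 and 15.9, 14.5 and 17.8 CPM in ECA722 (log2 fold change -6.27 ± 0.24, adjusted p = 1.97e-15). sri-40 (WBGene00005552, chromosome II, 3177963 to 3180478, plus strand), a predicted chemoreceptor gene, had 0.814, 0.476 and 0.532 CPM in ECA701 and 35.7, 38.6 and 38.4 CPM in ECA722 (log2 fold change -5.93 ± 0.12, adjusted p = 2.48e-17). Its groups were far apart, and the other wild libraries ran from 0 to 31.3 CPM. H11L12.1 (WBGene00019189, chromosome X, 17710285 to 17711698, minus strand) had 0.197, 0.172 and 0.106 CPM in ECA701 and 31.3, 32.1 and 31.3 CPM in ECA722 (log2 fold change -7.58 ± 0.17, adjusted p = 1.73e-18). 63.7% of its fragments matched it alone, and the sum with T16G12.3 and C27C7.1 was 15.6, 17.3 and 14.6 CPM in ECA701 and 101, 104 and 101 CPM in ECA722, a ratio of 0.155.

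**Figure D2:**
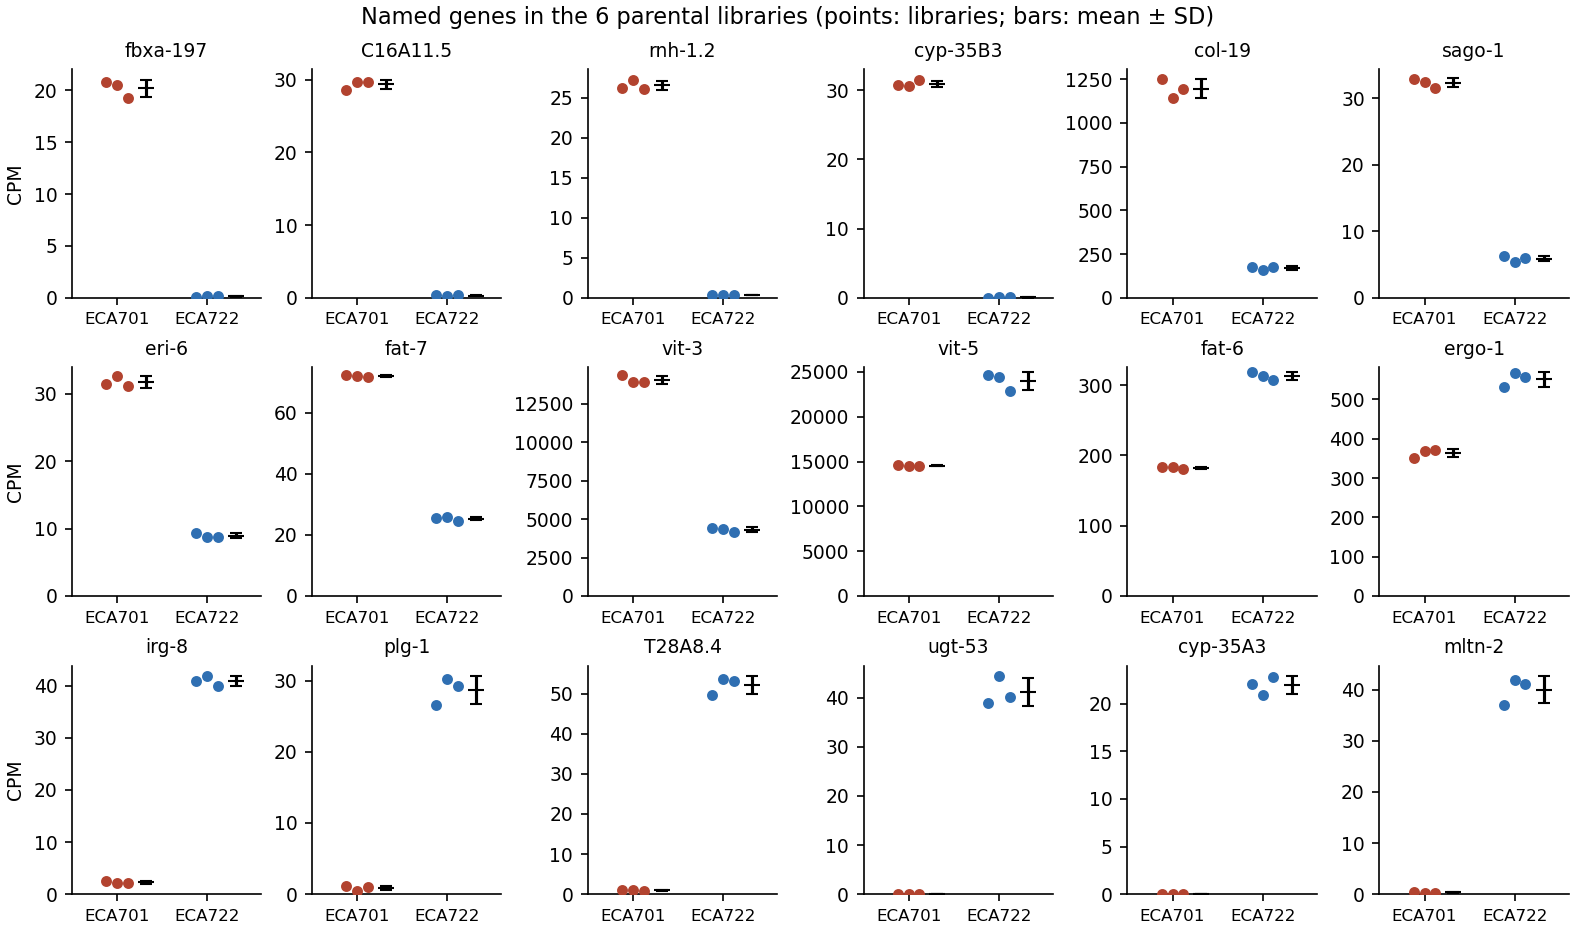
Level (CPM, linear axis from 0) of 18 named genes in the 3 ECA701 (red) and 3 ECA722 (blue) parental libraries, with mean and SD in black. In each panel the libraries of the strains do not overlap, as the rule for naming genes required. The panels run from ECA701-high genes such as fbxa-197 (20.2 ± 0.806 against 0.146 ± 0.0554 CPM) to ECA722-high genes such as mltn-2 (0.342 ± 0.142 against 40.0 ± 2.64 CPM).

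Some genes were read in one strain alone. 84 called genes had no count in the 3 ECA722 libraries and 96 had none in the 3 ECA701 libraries. The deposited allele-aware totals, which were made separately, stood under 1 count per library for 83 and 92 of them. A count of 0 leaves room for up to 3 counts over the 3 libraries of a strain, so folds are given as lower bounds, which cover counting error only. bath-24 (WBGene00015014, chromosome II, 2044619 to 2045605, minus strand), which encodes a protein with BTB and MATH domains, had 14.4, 15.8 and 15.9 CPM in ECA701 and 0 in each ECA722 library, at least 1096-fold higher (adjusted p = 6.87e-12). K02E7.10 (WBGene00019314, chromosome II, 1065365 to 1067007, minus strand) had 9.08, 7.97 and 8.71 CPM in ECA701 and 0 in each ECA722 library, at least 612-fold higher (adjusted p = 1.40e-11). Most other wild libraries lacked both genes as well: their median was 0 CPM for each, and their highest values were 5.79 CPM for bath-24 and 0.443 CPM for K02E7.10. ZK1240.3 (WBGene00022868, chromosome II, 2320334 to 2321951, plus strand) had 8.12, 7.03 and 7.40 CPM in ECA701 and 0 in ECA722 (adjusted p = 6.73e-13). 22.3% of its fragments matched it alone, and its sum with ZK1240.9 was 8.12, 7.03 and 7.40 CPM in ECA701 and 1.31, 1.43 and 1.37 CPM in ECA722, a ratio of 5.48 in place of the lower bound of 536. msp-79, a major sperm protein gene (WBGene00003466, chromosome IV, 9766771 to 9767154, minus strand), had 25.2, 13.7 and 27.3 CPM in ECA701 and 0 in ECA722, but 18.0% of its fragments matched it alone. The sum over msp-79 and 5 genes that share fragments with it was 104, 59.0 and 106 CPM in ECA701 and 31.0, 26.9 and 20.9 CPM in ECA722, a ratio of 3.42.

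On the other side, the pud genes of chromosome V, first found as proteins raised in worms with a mutant insulin-like receptor, were all but absent from ECA701. pud-1.2 (WBGene00021236, chromosome V, 2322038 to 2322566, minus strand) had 0 counts in each ECA701 library and 361, 355 and 348 CPM in ECA722 (adjusted p = 2.03e-15). Its sequence is nearly that of its neighbour pud-1.1, and the sum of both was 0, 0 and 0.0177 CPM in ECA701 and 399, 385 and 392 CPM in ECA722. How much of this belongs to pud-1.2 is uncertain, as 0.0617% of its fragments in ECA722 matched it alone. The allele-aware totals gave it a mean of 0.333 counts per library in ECA701 and 439 in ECA722. The estimated counts were 0 and 75798, as totals over the 3 libraries of each strain and not means. The other wild strains were divided, with a median of 0 and a highest value of 356 CPM for pud-1.2. The C-type lectin name clec-209 is carried by a pair of identical genes (WBGene00018910, chromosome V, 2459637 to 2460893, plus strand, and WBGene00021224, 2351676 to 2352932), whose fragments kallisto divided evenly. Their summed level was 0 in each ECA701 library and 95.4, 101 and 87.9 CPM in ECA722, at least 3284-fold lower in ECA701 for each (adjusted p = 6.38e-22). ECA701 was the only one of the 7 wild strains without it: the 15 other wild libraries held 20.2 to 541 CPM. math-4 (WBGene00015609, chromosome II, 1778772 to 1782574, minus strand), of the MATH domain family, had 0 in each ECA701 library and 19.0, 20.3 and 18.7 CPM in ECA722, at least 1344-fold lower in ECA701 (adjusted p = 3.40e-16).

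Sperm transcripts separated the strains as a group. Major sperm proteins (MSPs) are the cytoskeletal and signalling proteins of nematode sperm. Their summed level was 313, 178 and 331 CPM in ECA701 and 96.1, 83.4 and 67.3 CPM in ECA722. The lowest ECA701 library lay above the highest ECA722 library, while the 15 other wild libraries spanned 41.7 to 320.3 CPM. Of 29 tested msp genes, 24 were higher in ECA701, 22 of them at least 2-fold, and 3 were lower. Their median log2 fold change was 1.69, against 0.01 over all genes. msp-19 had 8.37, 4.52 and 9.07 CPM in ECA701 and 0, 0 and 0.111 CPM in ECA722 (log2 fold change 7.53 ± 0.69, adjusted p = 1.78e-08), but 16.9% of its fragments matched it alone and the sum with 6 similar genes had a ratio of 2.51. The 3 lower genes included msp-78, with 0 in ECA701 and 6.01, 5.18 and 4.15 CPM in ECA722 (adjusted p = 1.93e-11), and msp-32, with 0.0263, 0.0132 and 0.0355 CPM in ECA701 and 1.58, 1.90 and 1.57 CPM in ECA722 (log2 fold change -6.01 ± 0.43, adjusted p = 3.60e-10). Both share fragments with paralogs whose sums were higher in ECA701, by a ratio of 3.42 in both cases. The split among single msp genes is therefore uncertain, while the sum does not depend on how fragments were divided among them. msp-19 also shares fragments with genes named Y59E9AR.7, which are outside the sum. How far that sharing bears on the sum was not tested.

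The spe genes, which act in sperm development and sperm activation, moved with the msp genes. Of 26 tested, 21 were higher in ECA701, 16 of them at least 2-fold, and 1 was lower (median log2 fold change 1.32). spe-54 had 2.73, 1.77 and 2.40 CPM in ECA701 and 0.915, 0.817 and 0.736 CPM in ECA722 (log2 fold change 1.48 ± 0.30, adjusted p = 3.09e-04). spe-11, whose product sperm deliver to the egg, had 5.83, 3.32 and 6.12 CPM in ECA701 and 2.10, 1.94 and 1.46 CPM in ECA722 (log2 fold change 1.47 ± 0.26, adjusted p = 6.68e-05). In both, the groups did not overlap, as the rule for naming genes required. Replicate 2 was the lowest ECA701 library in both, as it was for the msp sum. The exception, spe-39, which acts in vesicle traffic in many tissues, was slightly lower, with 94.9, 100.3 and 99.9 CPM in ECA701 and 105, 114 and 109 CPM in ECA722 (log2 fold change -0.15 ± 0.05, adjusted p = 0.0078). Male markers were near 0 in both strains but higher in ECA701. Of 7 tested genes of male neurons and tail, 5 were higher, 4 of them at least 2-fold, with sums of 3.36, 2.45 and 3.44 CPM in ECA701, 1.35, 1.24 and 1.67 CPM in ECA722 and 0.701 to 2.23 CPM in the other wild libraries. pkd-2, a channel of male sensory neurons, had 0.617, 0.212 and 0.248 CPM in ECA701 and 0.123, 0.0437 and 0.0833 CPM in ECA722 (log2 fold change 2.09 ± 0.65, adjusted p = 0.00937). mab-3, a regulator of male development, had 1.29, 0.978 and 1.56 CPM in ECA701 and 0.683, 0.627 and 0.902 CPM in ECA722 (log2 fold change 0.78 ± 0.28, adjusted p = 0.0207). The mab-3 call was lost without ECA701 replicate 3 (adjusted p = 0.1), ECA722 replicate 1 (0.0653) or ECA722 replicate 2 (0.0764), and that of spe-39 without ECA722 replicate 2 (0.0502).

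Fewer genes were called higher in ECA701 once the sperm level entered the fit. When the summed msp level of each library was added to the fit as a covariate, a step chosen after the values were seen, 5408 genes were called (35.4%), 2493 higher (16.3%) and 2915 lower (19.1%) in ECA701. At least 2-fold, 552 were then higher (3.62%) and 1501 lower (9.83%), and of the original sets 540 of the 1717 higher and 1026 of the 1234 lower genes were called in the same direction. Since the strains differ in the msp level itself, the covariate removes part of any strain difference that is aligned with it. The loss of calls therefore cannot show which genes moved with the sperm transcripts. Whether the sperm level itself bears on the other genes was not tested.

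Yolk and oocyte genes were mostly higher in ECA701, by small amounts. The vitellogenins, the yolk proteins made by the intestine, differed among themselves. vit-2 had 23289, 23526 and 23348 CPM in ECA701 and 19359.9, 18679 and 18080.2 CPM in ECA722 (log2 fold change 0.32 ± 0.06, adjusted p = 1.39e-04), and vit-6 had 29164, 29244 and 28817 CPM in ECA701 and 25608, 24814 and 24086 CPM in ECA722 (log2 fold change 0.23 ± 0.07, adjusted p = 0.00574). vit-1 had 5264, 5335 and 5161 CPM in ECA701 and 5574, 5579 and 5281 CPM in ECA722 and was not called (-0.06 ± 0.08, adjusted p = 0.544). The neighbouring paralogs vit-3, vit-4 and vit-5 gave larger and opposite values: 1.70 ± 0.07 for vit-3 (adjusted p = 1.19e-14), 0.99 ± 0.07 for vit-4 (adjusted p = 1.49e-10) and -0.72 ± 0.07 for vit-5 (adjusted p = 1.03e-08). They share fragments with one another, 22.9%, 2.54% and 68.9% matching each alone, and vit-4 turned to -0.32 with the allele-aware totals. Their sum was 36958, 36127 and 36403 CPM in ECA701 and 33188, 32859 and 30762 CPM in ECA722, a ratio of 1.13 with no overlap. The yolk receptor gene rme-2 had 1407, 1501 and 1566 CPM in ECA701 and 1153, 1269 and 1214 CPM in ECA722 (log2 fold change 0.30 ± 0.06, adjusted p = 3.55e-04).

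Of 15 RNA regulators of oocytes and early embryos, 14 were higher in ECA701 and none was lower in this test, with a median of 0.22 and no 2-fold member. lin-41, which holds oocytes in meiotic prophase, had 752, 838 and 834 CPM in ECA701 and 552, 577 and 575 CPM in ECA722 (log2 fold change 0.51 ± 0.06, adjusted p = 7.26e-07). spn-4, a maternal translational regulator, had 1004, 1048 and 1055 CPM in ECA701 and 716, 755 and 713 CPM in ECA722 (0.51 ± 0.05, adjusted p = 1.16e-08). Both genes kept their groups apart, as the rule for naming genes required. Of 15 eggshell and egg activation genes, 11 were higher and none was lower (median 0.17). The chondroitin proteoglycan gene cpg-3 had 558, 593 and 589 CPM in ECA701 and 417, 441 and 427 CPM in ECA722 (0.44 ± 0.04, adjusted p = 1.60e-08). egg-5 had 192, 209 and 210.2 CPM in ECA701 and 147, 162 and 153 CPM in ECA722 (0.41 ± 0.06, adjusted p = 4.25e-06); 26.7% of its fragments matched it alone, and its sum with egg-4 had a ratio of 1.12.

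Genes of early zygotic transcription, taken as markers of embryos inside the mothers, leaned the other way. Summed over 10 genes of early zygotic transcription, the level was 8.62, 5.98 and 7.63 CPM in ECA701 and 11.7, 8.70 and 10.5 CPM in ECA722. The groups touched without overlapping, at 8.62 and 8.70 CPM, and the other wild libraries ranged over 5.39 to 16.7 CPM. elt-7 made up a large part of each sum, with 3.21, 3.77 and 4.31 CPM in ECA701 and 4.49, 4.18 and 4.29 CPM in ECA722. It was not called (adjusted p = 0.181), and without it the summed levels overlap. Whether all of these transcripts came from embryos was not tested. Of 8 tested members, 3 were lower in ECA701, all at least 2-fold, and none was higher. end-1, a regulator of endoderm fate, had 0.105, 0.0529 and 0.106 CPM in ECA701 and 0.874, 0.277 and 0.555 CPM in ECA722 (log2 fold change -2.68 ± 0.57, adjusted p = 4.49e-04). tbx-37 and ceh-51, both regulators of early mesoderm, were the others, with log2 fold changes of -1.55 ± 0.51 (adjusted p = 0.0139) and -1.35 ± 0.45 (adjusted p = 0.0142). Of 9 moulting and larval cuticle genes, mlt-10 alone was called, lower in ECA701, with 3.30, 4.87 and 4.15 CPM in ECA701 and 5.42, 5.41 and 5.76 CPM in ECA722 (-0.43 ± 0.18, adjusted p = 0.0487). That call was lost when any of 5 of the 6 libraries was left out, with adjusted p of 0.0729 to 0.215, and stood without ECA701 replicate 2.

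**Figure D3:**
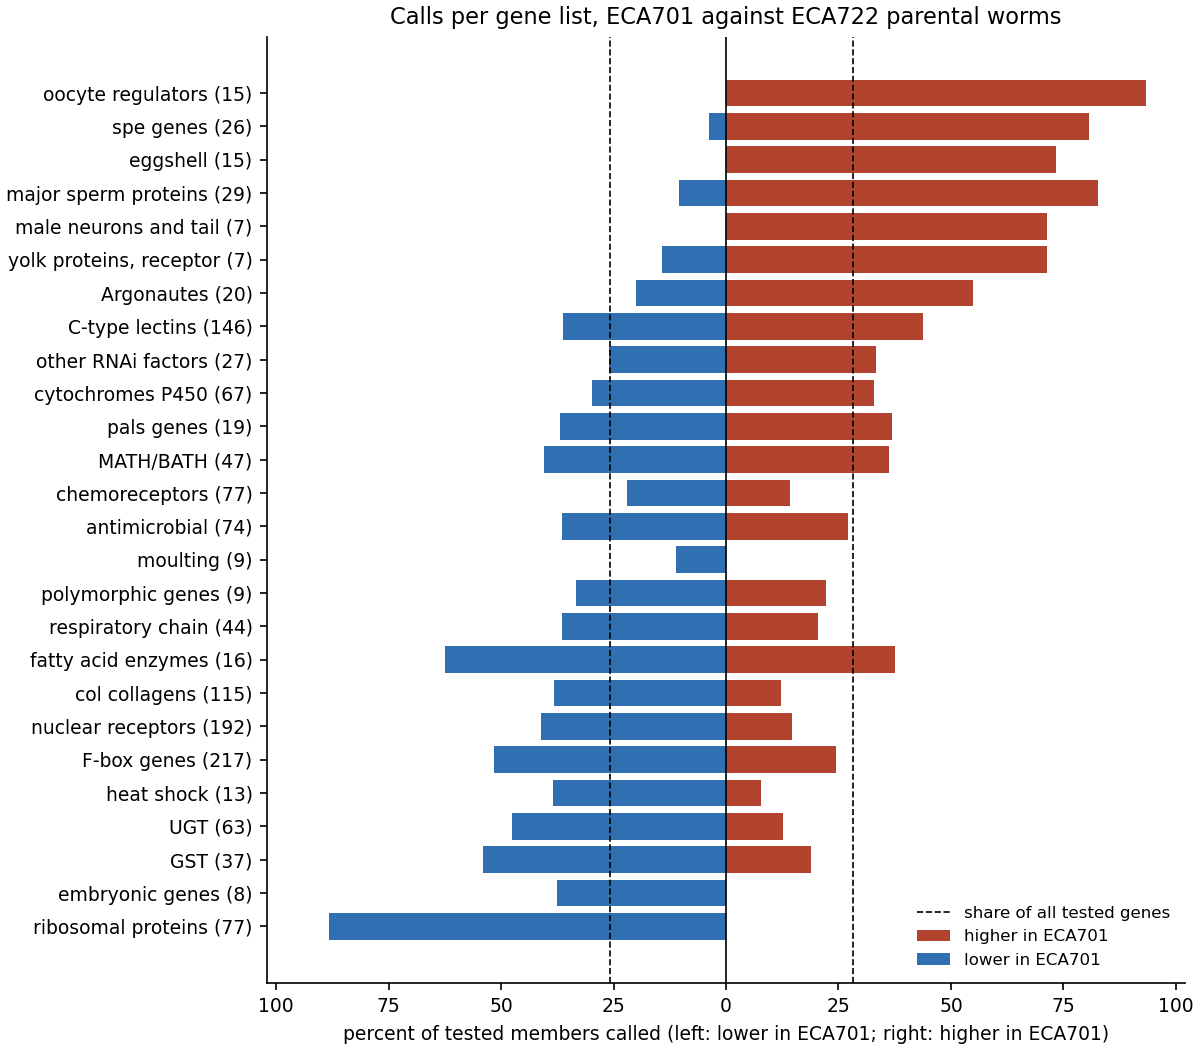
Share of the tested members of each of 26 gene lists called higher (red, right) or lower (blue, left) in ECA701 at an adjusted p under 0.05, with the number of tested members in brackets and dashed lines at the shares over all tested genes (28.2% higher, 25.8% lower). Oocyte, msp and spe genes reach farthest to the right (14 of 15, 24 of 29 and 21 of 26), and ribosomal protein genes farthest to the left (68 of 77).

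Ribosomal protein genes were mostly lower in ECA701, again by small amounts, while genes of energy metabolism went both ways. Of 77 cytosolic ribosomal protein genes, 68 were lower and none was higher in this test, with a median log2 fold change of -0.18 and no 2-fold member. Their summed level was 73282, 76346 and 75202 CPM in ECA701 and 83837, 85870.2 and 83046 CPM in ECA722. With the msp level as a covariate, 3 of the 77 were called lower. Other lists responded differently to it. Then 13 of 15 oocyte regulators (median 0.40) and 12 of 15 eggshell genes (median 0.39) were higher. Of 8 embryonic genes, 6 were lower (median -2.49), while of 26 spe genes 3 were higher and 1 lower. The members with the largest differences were rpl-11.2 and rpl-25.1, each the second gene for its protein. rpl-11.2 had 217, 222 and 209 CPM in ECA701 and 316, 318 and 305 CPM in ECA722 (-0.53 ± 0.04, adjusted p = 5.71e-11), and rpl-25.1 had 100.03, 102 and 94.9 CPM in ECA701 and 143, 133 and 131 CPM in ECA722 (-0.45 ± 0.04, adjusted p = 3.11e-09). Both kept their groups apart, as the rule for naming genes required. Nuclear genes of the respiratory chain were divided, with 9 of 44 higher and 16 lower (median -0.03). The share called, 56.8%, was near the 54.1% of all tested genes. Among those lower, cox-19, an assembly factor of cytochrome c oxidase, had 5.73, 5.42 and 5.93 CPM in ECA701 and 12.5, 13.2 and 13.0 CPM in ECA722 (-1.18 ± 0.10, adjusted p = 1.77e-09), and ucr-2.1, of ubiquinol-cytochrome c reductase, was also lower (-0.60 ± 0.04, adjusted p = 7.95e-11). Among those higher was cyc-2.2, a cytochrome c gene, with 4.78, 2.97 and 5.23 CPM in ECA701 and 2.27, 1.95 and 1.43 CPM in ECA722 (1.20 ± 0.24, adjusted p = 2.72e-04). cyc-2.2 followed the msp sum across these libraries, with its lowest ECA701 value in replicate 2, and lost its call with the covariate (-0.48, adjusted p = 0.167). cox-10 was higher by 0.33 ± 0.09 (adjusted p = 0.00571), a call lost without ECA701 replicate 2 (adjusted p = 0.0568).

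All 16 fatty acid desaturase and elongase genes tested were called, 6 higher and 10 lower in ECA701. The stearoyl-CoA desaturases fat-6 and fat-7, which make oleic acid, went opposite ways. fat-7 (WBGene00001399, chromosome V, 7151353 to 7153146, minus strand) had 72.4, 71.9 and 71.8 CPM in ECA701 and 25.5, 25.9 and 24.7 CPM in ECA722, a log2 fold change of 1.51 ± 0.05 (adjusted p = 1.25e-16). fat-6 (WBGene00001398, chromosome IV, 11913692 to 11915687, minus strand) had 184, 183 and 181 CPM in ECA701 and 318, 312 and 307 CPM in ECA722, a log2 fold change of -0.78 ± 0.03 (adjusted p = 1.72e-14). The spread within strains was a few percent for both genes. elo-5, an elongase of branched-chain fatty acids, had 137, 133 and 134 CPM in ECA701 and 244, 239 and 237 CPM in ECA722 (-0.83 ± 0.05, adjusted p = 2.39e-12). elo-7 was higher in ECA701 at a low level (1.50, 0.806 and 1.92 CPM against 0.587, 0.452 and 0.264 CPM in ECA722, 1.68 ± 0.38, adjusted p = 7.61e-04) and, like cyc-2.2, had its lowest ECA701 value in replicate 2.

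Cuticle collagens of the col family were more often lower in ECA701: 44 of 115 tested genes were lower, 25 of them at least 2-fold, and 14 were higher, 9 of them at least 2-fold (median -0.24). Their summed level was 22570.5, 20040.1 and 20741 CPM in ECA701 and 27634, 24116 and 27466 CPM in ECA722. The adult collagen col-19 ran against the family. It (WBGene00000608, chromosome X, 421707 to 422691, plus strand) had 1252, 1140.4 and 1194 CPM in ECA701 and 176, 157 and 176 CPM in ECA722, a log2 fold change of 2.82 ± 0.06 (adjusted p = 1.19e-19). The other wild libraries held 1259 to 2019 CPM, so that ECA701 lay just below them and ECA722 far below. col-169 was also higher, with 1.41, 1.59 and 0.869 CPM in ECA701 and 0.191, 0.190 and 0.222 CPM in ECA722 (2.68 ± 0.27, adjusted p = 2.25e-08). It shares most of its fragments with col-166, col-167, col-168 and col-170, and the sum of these 5 was lower in ECA701, by a ratio of 0.723. Among the lower collagens, col-40 had 0.236, 0.198 and 0.160 CPM in ECA701 and 5.99, 4.33 and 5.66 CPM in ECA722 (-4.71 ± 0.31, adjusted p = 2.17e-11), and col-165 had 0.0394, 0.0397 and 0.0177 CPM in ECA701 and 1.76, 1.72 and 1.99 CPM in ECA722 (-5.68 ± 0.44, adjusted p = 5.38e-09).

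F-box proteins choose the targets of ubiquitin ligases, and their worm families have expanded greatly. Of 217 tested F-box genes, 112 were lower in ECA701, 100 of them at least 2-fold, and 53 were higher, 42 of them at least 2-fold. The median was -0.89, yet the summed level was 969, 974 and 967 CPM in ECA701 and 857, 853 and 847 CPM in ECA722, higher in ECA701. The subfamilies differed. Of 62 fbxb genes, 48 were lower, all at least 2-fold, and 3 were higher (median -2.04), whereas 42 of 121 fbxa genes were higher and 50 lower (median -0.16). The fbxb genes were weakly expressed, with a median level of 0.335 CPM per gene, and their summed level overlapped between the strains, at 38.7, 33.3 and 34.9 CPM in ECA701 and 55.2, 31.6 and 41.7 CPM in ECA722. The fbxa sum was 751, 749.5 and 745 CPM in ECA701 and 632, 655 and 639 CPM in ECA722. With the msp level as a covariate, 49 of the 62 fbxb genes were lower and 3 higher (median -3.72). In F1 worms, where N2 supplied the other allele, 2 of 64 tested fbxb genes were higher and 1 was lower in the ECA701 cross (median -0.11), and 3 of 68 were higher and 2 lower without ECA722 x N2 replicate 1 (median -0.15). Of the 8 embryonic genes tested above, 3 were also lower in ECA701, and their part in the fbxb values was not tested.

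Single F-box genes showed presence in one strain. fbxa-158 (WBGene00015602, chromosome II, 1619814 to 1621280, minus strand) had 11.8, 12.3 and 11.4 CPM in ECA701 and 0.0137, 0.0146 and 0.0417 CPM in ECA722 (8.86 ± 0.34, adjusted p = 2.19e-14). No other wild library exceeded 0.0830 CPM, so ECA701 stood alone. fbxa-153 had 1.12, 1.34 and 1.33 CPM in ECA701 and 0 in ECA722, at least 89.9-fold higher (adjusted p = 1.03e-12). In the other direction, fbxb-2 had 0, 0.0132 and 0 CPM in ECA701 and 1.84, 0.962 and 1.11 CPM in ECA722 (-7.57 ± 0.77, adjusted p = 7.65e-08), and fbxc-39 had 0 in ECA701 and 1.38, 0.933 and 0.819 CPM in ECA722, at least 72.4-fold lower (adjusted p = 1.42e-09). MATH and BATH genes, whose products also serve ubiquitin ligases, were divided evenly, with 17 of 47 higher and 19 lower. math-9 had 0.972, 1.20 and 1.08 CPM in ECA701 and 0, 0 and 0.0417 CPM in ECA722 (6.08 ± 0.68, adjusted p = 2.74e-07). math-3, which lies beside math-4, had 0 in ECA701 and 5.76, 5.80 and 5.37 CPM in ECA722, at least 392-fold lower (adjusted p = 5.63e-13). It overlaps F36H5.14 and math-26, and 2.48% of its fragments matched it alone, so that this bound is uncertain. The allele-aware totals gave it a mean of 0 counts per library in ECA701 and 67.1 in ECA722. The estimated counts were 0 and 1207, as totals over the 3 libraries of each strain and not means.

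C-type lectins, secreted proteins of the intestine and other tissues that include many infection-response genes, differed often and in both directions. Of 146 tested, 64 were higher in ECA701, 49 at least 2-fold, and 53 were lower, 33 at least 2-fold (median 0.10). clec-166 had 5.86, 5.91 and 7.03 CPM in ECA701 and 0 in ECA722, at least 447-fold higher (adjusted p = 1.45e-15). clec-71 had 5.58, 6.94 and 5.64 CPM in ECA701 and 0, 0.0146 and 0.0139 CPM in ECA722 (9.05 ± 0.46, adjusted p = 2.69e-13), and ECA701 lay above all other wild libraries, whose highest value was 2.42 CPM. Among the lower lectins, the clec-209 pair described above differed most. Nuclear hormone receptor genes, a family of transcription factors that is very large in worms, were lower in 79 of 192 cases and higher in 28, with 25 and 16 of these at least 2-fold (median -0.22). nhr-210 had 1.30, 1.12 and 1.86 CPM in ECA701 and 0 in ECA722, at least 102-fold higher (adjusted p = 4.49e-11), and nhr-193 had 1.30, 0.939 and 1.19 CPM in ECA701 and 0 in ECA722, at least 81.5-fold higher (adjusted p = 4.21e-11). All 15 other wild libraries expressed nhr-193, at 0.774 to 3.68 CPM. Among the lower genes, nhr-18 had 0.473, 0.569 and 0.639 CPM in ECA701 and 2.92, 2.52 and 2.78 CPM in ECA722 (-2.30 ± 0.18, adjusted p = 3.63e-10), and nhr-177 had 0.801, 0.780 and 0.763 CPM in ECA701 and 3.14, 3.12 and 2.96 CPM in ECA722 (-1.97 ± 0.16, adjusted p = 8.97e-10).

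Among detoxification enzymes, some members of the cyp-35 group of cytochrome P450 genes on chromosome V went opposite ways. Of 67 cyp genes tested, 22 were higher and 20 lower in ECA701, so that 62.7% were called, against 54.1% of all tested genes. cyp-35B3 (WBGene00019470, chromosome V, 3945353 to 3947044, plus strand) had 30.8, 30.6 and 31.5 CPM in ECA701 and 0.0137, 0.146 and 0.139 CPM in ECA722 (8.27 ± 0.18, adjusted p = 5.02e-20). cyp-35A3 (WBGene00019565, chromosome V, 4022609 to 4024482, plus strand) had 0.0131, 0.0529 and 0.0532 CPM in ECA701 and 22.1, 21.0 and 22.8 CPM in ECA722 (-9.08 ± 0.19, adjusted p = 4.12e-20). cyp-35A4, next to cyp-35A3, was also lower (0, 0.0264 and 0.0177 CPM in ECA701 and 2.77, 2.39 and 2.78 CPM in ECA722, -7.33 ± 0.32, adjusted p = 2.27e-14). cyp-35B3, like cyp-35B1, was thus nearly off in ECA722, and cyp-35A3 and cyp-35A4 nearly off in ECA701. cyp-35B2 did not follow cyp-35B1 and cyp-35B3, with a log2 fold change of -0.27 in parents and 0.60 between the crosses. cyp-34A6, in the same stretch, had 1.33, 1.26 and 1.08 CPM in ECA701 and 0.0273, 0 and 0 CPM in ECA722 (6.75 ± 0.60, adjusted p = 4.21e-09).

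The conjugating enzymes leaned towards ECA722. Of 63 UDP-glucuronosyltransferase genes, 30 were lower in ECA701 and 8 higher (median -0.32), and their summed level was 627, 610.0 and 611 CPM in ECA701 and 933, 951 and 946 CPM in ECA722. ugt-53 (WBGene00020182, chromosome V, 2849343 to 2852028, plus strand) had 0.118, 0.0661 and 0.0710 CPM in ECA701 and 38.9, 44.3 and 40.1 CPM in ECA722 (-8.86 ± 0.12, adjusted p = 1.54e-22). Every other wild library expressed ugt-53, at 5.09 to 51.6 CPM. ugt-32 was lower by less (1.35, 1.31 and 0.976 CPM in ECA701 and 3.85, 3.85 and 3.57 CPM in ECA722, -1.62 ± 0.14, adjusted p = 3.05e-09). ugt-67 was higher, with 1.04, 1.00 and 1.15 CPM in ECA701 and 0.205, 0.233 and 0.194 CPM in ECA722 (2.32 ± 0.28, adjusted p = 4.72e-07), as was ugt-38 (5.31 ± 0.64, adjusted p = 3.61e-07), although 8.65% of the ugt-38 fragments matched it alone and its sum with ugt-39 was lower in ECA701, by a ratio of 0.823. Of 37 glutathione S-transferase genes, 20 were lower and 7 higher (median -0.42). gst-41 had 0, 0 and 0.0355 CPM in ECA701 and 3.15, 1.79 and 2.72 CPM in ECA722 (-7.77 ± 0.62, adjusted p = 6.26e-10), and gst-9 had 0.0788, 0.132 and 0.0355 CPM in ECA701 and 2.96, 2.99 and 3.73 CPM in ECA722 (-5.20 ± 0.26, adjusted p = 2.60e-13). gst-17 had 2.54, 2.10 and 2.16 CPM in ECA701 and 0.0683, 0 and 0.0555 CPM in ECA722 (5.69 ± 0.47, adjusted p = 1.02e-09), and gst-5 was higher by 0.77 ± 0.10 (adjusted p = 1.89e-06).

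Among defence genes, the pals genes, which include regulators and markers of the response to microsporidia and viruses, were divided: 7 of 19 were higher and 7 lower in ECA701. The share called was 73.7%, against 54.1% of all tested genes. pals-23 and its neighbour pals-24 share most of their fragments. Their sum was 3.77, 3.36 and 4.40 CPM in ECA701 and 0 in each ECA722 library, and each gene was called (adjusted p = 7.84e-11 and 2.09e-11). pals-34 had 0.0788, 0.212 and 0.160 CPM in ECA701 and 1.60, 2.07 and 1.402 CPM in ECA722 (-3.48 ± 0.27, adjusted p = 3.17e-10), and pals-18, which overlaps pals-19, had 0.722, 0.767 and 0.639 CPM in ECA701 and 3.13, 3.13 and 4.30 CPM in ECA722 (-2.30 ± 0.21, adjusted p = 4.55e-09). Of 74 lysozyme, saposin, antimicrobial peptide and infection-response genes, 20 were higher and 27 lower. The share called was 63.5%. irg-8, an infection-response gene, had 2.61, 2.09 and 2.13 CPM in ECA701 and 40.9, 41.9 and 40.0 CPM in ECA722 (-4.16 ± 0.09, adjusted p = 3.60e-20). Other wild libraries ranged from 0.0771 to 187 CPM at irg-8. The antibacterial factor gene abf-2 had 0.460, 0.159 and 0.213 CPM in ECA701 and 2.13, 2.00 and 2.39 CPM in ECA722 (-2.94 ± 0.33, adjusted p = 1.44e-07). fipr-22 was higher (3.70 ± 0.24, adjusted p = 2.63e-09), and its sum with fipr-23 and C37A5.3 had a ratio of 10.5. fipr-17 was higher by 2.94 ± 0.55 (adjusted p = 1.13e-04), with 3.07, 1.23 and 3.30 CPM in ECA701 and 0.505, 0.292 and 0.180 CPM in ECA722, and its call was lost with the msp covariate (-0.22, adjusted p = 0.836).

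Heat shock genes as a list were not raised together in either strain: of 13 tested, 1 was higher and 5 lower in ECA701. The tested hsp-16 genes were all lower in ECA701. Among the 5, hsp-16.48 is counted under a pair of entries with identical values. Each entry had 1.06, 0.925 and 1.21 CPM in ECA701 and 3.70, 3.34 and 3.87 CPM in ECA722 (-1.78 ± 0.15, adjusted p = 1.64e-09). The small heat shock gene hsp-16.1 (WBGene00002017) had 2.33, 2.14 and 1.83 CPM in ECA701 and 8.01, 6.93 and 8.04 CPM in ECA722 (-1.86 ± 0.13, adjusted p = 9.14e-11). 27.3% of its fragments matched it alone, and a second gene of that name with which it shares fragments (WBGene00002015) was listed at 0 in all 6 libraries. The hsp-70-like gene F44E5.5 had 0 in ECA701 and 7.14, 1.55 and 3.83 CPM in ECA722 (adjusted p = 2.86e-06), but 1.92% of its fragments matched it alone and the sum with its twin F44E5.4 was 6.59, 4.91 and 6.23 CPM in ECA701 and 10.4, 8.89 and 9.86 CPM in ECA722. The mitochondrial chaperone gene hsp-60 was higher, with 657, 694 and 704 CPM in ECA701 and 533, 561 and 550.4 CPM in ECA722 (0.32 ± 0.05, adjusted p = 1.60e-05). Of 1309 chemoreceptor genes in the files, 77 were expressed enough in whole adults to be tested, and 11 of these were higher and 17 lower. The share called, 36.4%, was below the 54.1% of all tested genes. srv-7 had 1.27, 1.48 and 0.816 CPM in ECA701 and 0.137, 0.0437 and 0.194 CPM in ECA722 (3.23 ± 0.37, adjusted p = 2.12e-07), and srj-14 was higher by 2.80 ± 0.21 (adjusted p = 2.37e-10). srh-70 had 0, 0.0264 and 0 CPM in ECA701 and 1.92, 2.06 and 2.11 CPM in ECA722 (-7.44 ± 0.61, adjusted p = 1.05e-09), and sri-65 was lower by a similar amount (-7.13 ± 0.69, adjusted p = 3.48e-08).

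Argonautes bind small RNAs and carry out RNA interference, and 15 of 20 tested differed, 11 higher and 4 lower in ECA701. The somatic secondary Argonaute gene sago-1 (WBGene00019666, chromosome V, 6303771 to 6308337, plus strand) had 32.9, 32.5 and 31.6 CPM in ECA701 and 6.28, 5.45 and 5.97 CPM in ECA722 (2.45 ± 0.06, adjusted p = 3.98e-19). ECA722 was the outlier here, below the 36.6 to 47.3 CPM of the other wild libraries, and ECA701 was itself just below them. sago-2 had 121, 115 and 125 CPM in ECA701 and 47.4, 48.9 and 48.0 CPM in ECA722 (1.32 ± 0.06, adjusted p = 2.82e-14). ppw-1, its close paralog, which is required for germline RNA interference and is known to be defective in the strain CB4856, had 245, 251 and 264 CPM in ECA701 and 267, 279 and 273 CPM in ECA722 (-0.11 ± 0.05, adjusted p = 0.0492). That call stood just under the threshold and was lost with DESeq2 (adjusted p = 0.0773) and without ECA701 replicate 1 or 2 or ECA722 replicate 2 or 3 (adjusted p of 0.0897 to 0.178), and the sum of ppw-1 and sago-2 was 366, 367 and 388 CPM in ECA701 and 314, 328 and 321 CPM in ECA722. alg-3 and alg-4, Argonautes of the sperm-making germline, were both higher (1.69 ± 0.24, adjusted p = 4.05e-06, and 1.56 ± 0.25, adjusted p = 2.24e-05). alg-3 had 9.47, 5.25 and 10.8 CPM in ECA701 and 3.07, 2.70 and 2.11 CPM in ECA722, with the lowest ECA701 value again in replicate 2. In the other direction, the microRNA Argonaute gene alg-1 had 49.6, 47.9 and 49.9 CPM in ECA701 and 83.6, 80.1 and 79.9 CPM in ECA722 (-0.73 ± 0.05, adjusted p = 5.12e-11), and ergo-1, of an endogenous small RNA pathway, had 352, 369 and 372 CPM in ECA701 and 531, 567 and 557 CPM in ECA722 (-0.60 ± 0.05, adjusted p = 6.68e-10).

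Of 27 other RNA interference factors, 9 were higher and 7 lower in ECA701. The share called, 59.3%, was near the 54.1% of all tested genes. eri-6, which with eri-7 forms a helicase through trans-splicing and is known to vary between wild strains, had 31.5, 32.7 and 31.1 CPM in ECA701 and 9.38, 8.73 and 8.72 CPM in ECA722 (1.83 ± 0.05, adjusted p = 6.59e-18). ECA722 lay below all other wild libraries at eri-6 (14.8 to 32.3 CPM). The gene overlaps T01A4.9 on the same strand, so its reads cannot be wholly told apart from those of its neighbours. eri-5 was higher (0.59 ± 0.06, adjusted p = 1.45e-08), and sid-2, which takes up double-stranded RNA in the gut, was lower (-0.47 ± 0.09, adjusted p = 1.84e-04), as was rrf-2, an RNA-dependent RNA polymerase gene (-0.39 ± 0.06, adjusted p = 9.93e-06).

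Genes already known to vary among wild strains were examined as a list of 11, of which 9 were tested. sup-35 and pha-1 form a toxin and antidote pair on chromosome III. sup-35, the toxin, had 4.98, 5.26 and 5.94 CPM in ECA701 and 0 in each ECA722 library (adjusted p = 8.73e-17). 16.1% of its fragments matched it alone, and it overlaps WBGene00012975 on the same strand. The allele-aware totals gave it a mean of 46.4 counts per library in ECA701, against 1112 estimated counts as a total over the 3 libraries. No fold is therefore given. The other wild libraries ranged from 0.381 to 87.4 CPM. pha-1, the antidote, was lower, with 11.1, 9.94 and 11.2 CPM in ECA701 and 32.8, 35.5 and 33.6 CPM in ECA722 (-1.66 ± 0.07, adjusted p = 2.19e-14). plg-1, a mucin gene needed for the copulatory plug that some wild males leave, had 1.08, 0.489 and 0.958 CPM in ECA701 and 26.6, 30.2 and 29.3 CPM in ECA722 (-5.10 ± 0.18, adjusted p = 4.45e-15). The neuropeptide receptor gene npr-1, glb-5, nath-10 and scb-1 were not called, with adjusted p of 0.72, 0.199, 0.808 and 0.457 in that order. Without ECA722 replicate 2, glb-5 was called lower (-0.85, adjusted p = 0.0378). scb-1 had 15.0, 14.6 and 15.5 CPM in ECA701 and 14.6, 14.2 and 14.3 CPM in ECA722, and nath-10 had 87.5, 91.9 and 89.2 CPM in ECA701 and 89.8, 92.5 and 89.3 CPM in ECA722, both with overlapping groups. peel-1 had no count in any of the 6 libraries and its antidote zeel-1 at most 0.197 CPM, and neither was tested.

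The differences were not spread evenly over the genome. When each autosome was divided into 3 equal parts, 24.6% of the 7614 tested genes in the outer parts differed at least 2-fold, against 15.4% of the 5459 in the middle parts. The excess was larger among genes lower in ECA701 (10.7% of the outer and 4.95% of the middle genes) than among genes higher in ECA701 (13.9% and 10.5%). Chromosome V showed the widest contrast, with 33.6% of its outer and 16.0% of its middle genes, followed by chromosome II with 27.9% and 13.9%. The X chromosome showed little, with 11.6% and 9.58%. Genes lower in ECA701 outnumbered the higher ones on X (151 and 86 of 2181), while on chromosome IV, where many msp genes lie, 387 were higher and 187 lower of 2613. Among windows of 1 Mb with at least 20 tested genes, the densest were chromosome V from 16000001 to 17000000 with 56.5% of 124 genes, chromosome II from 1000001 to 2000000 with 51.2% of 129, and chromosome V from 17000001 to 18000000 with 49.3% of 73. fbxa-158, math-3, math-4, K02E7.10 and col-40 lie in the second of these windows. Neighbouring genes are not independent, and these shares are given as a description.

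**Figure D4:**
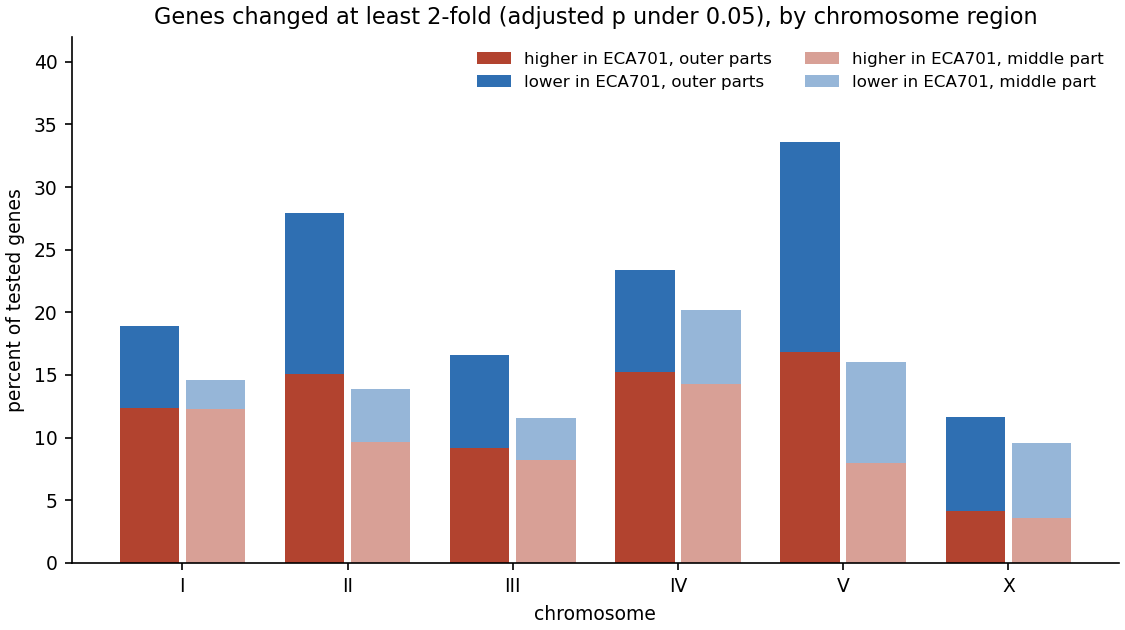
Percent of tested genes that differed at least 2-fold (adjusted p under 0.05), stacked by direction (red higher and blue lower in ECA701), in the outer parts (solid) and the middle part (pale), each chromosome being divided into 3 equal lengths. The outer bar is the taller on all 6 chromosomes, most on chromosome V (33.6% and 16.0%) and least on X (11.6% and 9.58%).

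The 15 libraries of the other 5 wild strains gave a range for each gene. Over all 15266 tested genes, 11.2% had ECA701 alone beyond that range on either side, 6.96% ECA722 alone and 0.793% both on opposite sides. Of the 1717 genes at least 2-fold higher in ECA701, 411 (23.9%) had ECA701 alone above all 15 libraries. ECA722 alone lay below them for 123 (7.16%), and 17 (0.990%) had both. The shares over all genes count either side of the range, and those of the 2-fold genes a single side, so they are not directly comparable. Of the 1234 genes at least 2-fold lower in ECA701, 236 (19.1%) had ECA701 alone below the other strains, 233 (18.9%) had ECA722 alone above them and 36 (2.92%) had both. For 1155 and 719 genes neither strain was out of range, so the difference lay within what the other strains span. At rnh-1.2 and nhr-193, ECA722 alone lay below the other strains, and at T28A8.4, ugt-53 and clec-209, ECA701 alone did.

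In F1 worms, 1 of each pair of chromosomes came from N2. Fewer genes were called than in parents, but the F1 fit held 6 libraries with 4 residual degrees of freedom, against 21 and 14. On simulated data it recovered 58 of 100 genes changed 2-fold, against 77 for the parental fit. It also called 22 unchanged genes, against 15 for the parental fit. The counts are therefore not directly comparable. Between the 3 ECA701 x N2 and the 3 ECA722 x N2 libraries, 2697 of 14738 genes were called (18.3%), 1474 higher (10%) and 1223 lower (8.3%) in the ECA701 cross. At least 2-fold, 176 were higher (1.19%) and 306 lower (2.08%). Without the ECA722 x N2 library of replicate 1 the count was 4855 of 15052 genes (32.3%), 2081 higher (13.8%) and 2774 lower (18.4%), with 202 at least 2-fold higher (1.34%) and 1323 lower (8.79%). The count was 1505 without ECA701 x N2 replicate 2, 1360 without ECA701 x N2 replicate 3, 1288 without ECA722 x N2 replicate 2 and 1220 without ECA722 x N2 replicate 3. Parental and F1 comparisons share no library. Of the 1234 genes at least 2-fold lower in ECA701 parents, 1097 were tested in F1 worms, and 491 were called lower there (597 of 1119 without that library), against 9 called higher. Of the 1717 genes at least 2-fold higher in ECA701 parents, 1507 were tested, and 260 were called higher and 6 lower (281 and 721 of 1607 without that library). The median F1 log2 fold change was -0.69 for the genes lower in parents (-0.72 without that library) and -0.44 for those higher in parents (-0.91 without it). In the direction lower in ECA701, the share of genes called at least 2-fold was thus below that in parents (8.08%) with all 6 F1 libraries and above it without that one.

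Sperm genes were among those whose order differed between parents and hybrids. The summed msp level was 101, 82.1 and 63.5 CPM in ECA701 x N2 worms and 24.5, 209 and 181 CPM in ECA722 x N2 worms. Apart from the ECA722 x N2 library of replicate 1, the order of the strains was thus the reverse of that in parents. Of 29 msp genes tested in F1 worms, 1 was called lower and none higher in the ECA701 cross (27 lower and none higher of 30 without that library). The difference between the parental and the F1 contrast, tested as an interaction, was called for 3775 of 15681 genes (24.1%), 1895 upwards (12.1%) and 1880 downwards (12%), and for 19 msp genes upwards and 1 downwards of 30, and 15 and 1 of 27 spe genes. Of 77 ribosomal protein genes, 68 were lower in ECA701 parents, but none was lower and 3 were higher in the ECA701 cross (1 lower and 34 higher without ECA722 x N2 replicate 1), and the interaction was called downwards for 71. These interaction counts include ECA722 x N2 replicate 1.

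Within an F1 animal the wild and the N2 allele share the same body, so the share of wild reads compares these copies under the same conditions. The ECA701 and ECA722 alleles lay in different animals. Whether other differences between the crosses bear on their ratios was not tested. The ratio of wild to N2 allele was compared between the crosses for 7465 genes with at least 10 allele-specific reads per library, and 691 differed (9.26%), 323 higher (4.33%) and 368 lower (4.93%) for the ECA701 allele. The count was 482 without ECA722 x N2 replicate 1 and 458 without ECA722 x N2 replicate 2. Of the genes at least 2-fold higher in ECA701 parents, 341 could be tested, and 91 were called in the same direction and 5 in the opposite one. Of those at least 2-fold lower, 372 could be tested, and 98 were called in the same direction and none in the opposite one in this test. Among the 3062 tested genes with no call in parents, 79 were called in the direction of their parental value and 46 against it. The sign of the allele difference matched that in parents for 75.1% and 79.6% of the 2-fold higher and lower genes. Of the msp genes, 9 had enough allele-specific reads to be tested, and 1 of them was called, higher for the ECA701 allele.

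At col-19 and fat-7, the alleles differed in hybrids while no difference in totals was called. col-19 had 1114, 913 and 1012 CPM in ECA701 x N2 worms and 1007, 1178 and 1015 CPM in ECA722 x N2 worms, with no difference called (-0.07, adjusted p = 0.538; -0.12 and 0.257 without ECA722 x N2 replicate 1). The wild allele nevertheless gave 49.1% in the ECA701 cross and 3.77% in the ECA722 cross of the allele-specific reads, a log2 allele ratio difference of 4.62 ± 0.04 (adjusted p = 1.20e-10). fat-7 had 55.4, 53.8 and 58.5 CPM in ECA701 x N2 worms and 56.7, 51.1 and 56.7 CPM in ECA722 x N2 worms (0.03, adjusted p = 0.734; 0.05 and 0.514 without that library), while its wild allele gave 74.6% in the ECA701 cross and 5.25% in the ECA722 cross (5.69 ± 0.19, adjusted p = 9.24e-07). In both genes the N2 copy made up most of the reads in the ECA722 cross. At 4 detoxification genes the allele difference had the direction of the parental one: cyp-35B1 gave 49.9% in the ECA701 cross and 2.33% in the ECA722 cross of wild reads (5.33 ± 0.34, adjusted p = 2.98e-05), cyp-35B3 gave 46.1% in the ECA701 cross and 0.180% in the ECA722 cross of wild reads (8.47 ± 0.46, adjusted p = 1.35e-05), cyp-35A3 0.901% in the ECA701 cross and 52.9% in the ECA722 cross (-6.95 ± 0.56, adjusted p = 1.37e-04), and ugt-53 0.285% in the ECA701 cross and 55.8% in the ECA722 cross (-8.70 ± 0.41, adjusted p = 6.26e-06), although for ugt-53 the ECA722 share rests on 29 wild and 23 N2 reads over 3 libraries. cyp-35A4 had too few such reads for the test and went the other way, with 10 wild and 11 N2 reads in the ECA701 cross and 0 wild and 16 N2 reads in the ECA722 cross, while its F1 total was lower in the ECA701 cross (-3.05, adjusted p = 3.30e-04; -3.13 and 1.01e-05 without ECA722 x N2 replicate 1). fbxa-197 and rnh-1.2 likewise had wild shares of 63.7% in the ECA701 cross and 2.68% in the ECA722 cross, and of 42.7% in the ECA701 cross and 1.34% in the ECA722 cross (5.98 ± 0.37, adjusted p = 2.79e-05, and 5.88 ± 0.47, adjusted p = 1.27e-04). T28A8.4, low in ECA701 parents, had a wild share of 5.42% in the ECA701 cross and 47.3% in the ECA722 cross (-3.98 ± 0.13, adjusted p = 9.64e-07), and its F1 total was lower in the ECA701 cross (37.5, 41.7 and 40.5 CPM against 59.3, 56.5 and 53.7 CPM in the ECA722 cross, adjusted p = 3.43e-04, and 1.65e-05 without ECA722 x N2 replicate 1). Without that library, the allele differences of these genes were 4.63 for col-19, 5.67 for fat-7, 5.22 for cyp-35B1, 7.98 for cyp-35B3, -6.95 for cyp-35A3, -8.51 for ugt-53, 6.40 for fbxa-197, 6.52 for rnh-1.2 and -3.93 for T28A8.4, with adjusted p of 1.38e-08 to 0.00131.

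The remaining genes with large parental differences varied in what the hybrids showed. F15D4.6 was low in both crosses, at 1.23, 1.09 and 0.961 CPM in ECA701 x N2 worms and 1.07, 0.772 and 0.741 CPM in ECA722 x N2 worms (0.34, adjusted p = 0.322; 0.54 and 0.126 without ECA722 x N2 replicate 1), although ECA701 parents held 51.8 ± 1.72 CPM and ECA722 parents 1.31 ± 0.163 CPM (SD, n = 3 each). Too few allele-specific reads covered it for an allele test. mltn-2 kept its difference, with 0.511, 0.713 and 0.595 CPM in ECA701 x N2 worms and 26.3, 24.5 and 27.4 CPM in ECA722 x N2 worms (-5.43, adjusted p = 1.31e-08) and 31.7% in the ECA701 cross and 98.2% in the ECA722 cross of wild reads (-6.75 ± 0.53, adjusted p = 1.18e-04). The yolk gene vit-5 was lower in the ECA701 cross as in the parents (-0.48, adjusted p = 3.10e-04), with 58.6% in the ECA701 cross and 67.1% in the ECA722 cross of wild reads. lin-41 and spn-4, which were higher in ECA701 parents, had no allele difference called (-0.04 ± 0.06, adjusted p = 0.736, and 0.09 ± 0.04, adjusted p = 0.241), while their F1 totals were still higher in the ECA701 cross (0.17, adjusted p = 0.0495, and 0.30, adjusted p = 0.00229). plg-1, at -5.10 ± 0.18 between the parents, had 39.0, 45.8 and 38.9 CPM in ECA701 x N2 worms and 45.5, 45.2 and 46.1 CPM in ECA722 x N2 worms, with no difference called (adjusted p = 0.148). Without ECA722 x N2 replicate 1, the F1 values were -5.43 for mltn-2 (adjusted p = 1.60e-13), -0.45 for vit-5 (7.06e-05), 0.20 for lin-41 (0.00717), 0.32 for spn-4 (1.62e-04) and -0.15 for plg-1 (0.0986), and the allele differences -6.44 for mltn-2 (6.30e-04), -0.53 for vit-5 (1.92e-05), -0.02 for lin-41 (0.896) and 0.09 for spn-4 (0.323).

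**Figure D5:**
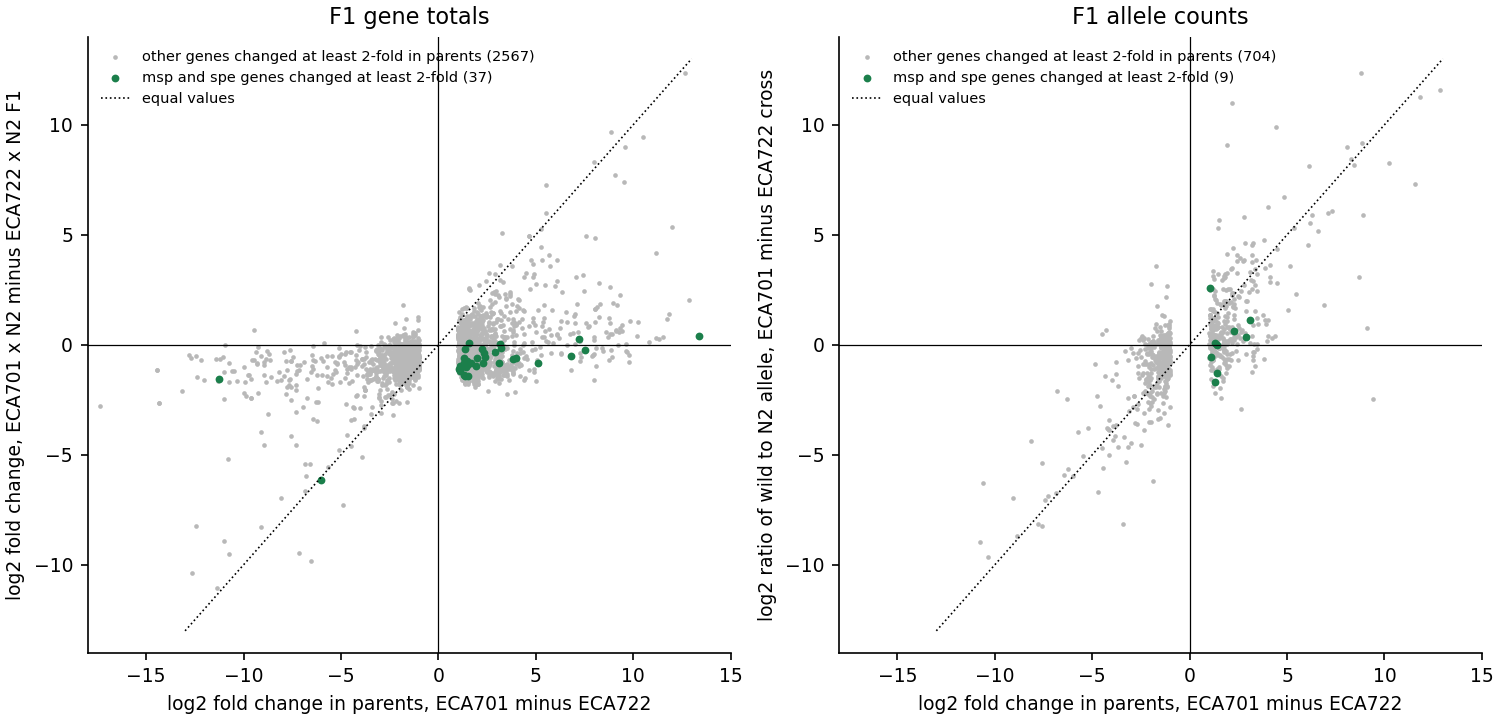
Log2 fold change in F1 gene totals (left panel) and log2 difference of the wild to N2 allele ratio in F1 worms (right panel), each ECA701 cross minus ECA722 cross, against the log2 fold change between ECA701 and ECA722 parents, for genes changed at least 2-fold in parents, with msp and spe genes marked and a dotted line at equal values. In the left panel, genes lower in ECA701 parents lie mostly below 0 (92.5% of 1097) while 37.3% of the 1507 higher genes lie above it (92.7% of 1119 and 33.2% of 1607 without ECA722 x N2 replicate 1, which is included in the plot), and in the right panel 79.6% and 75.1% keep the sign of the parental difference.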

How the data were processed

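Poly(A) RNA of whole worms was sequenced. Per the file headers, the authors deposited estimated counts and effective lengths for each transcript from kallisto, and the transcript lengths differ between the strains' tables. For genes, they deposited estimated counts of each allele from salmon and emase-zero, and whole counts of fragments per set of transcripts. The submitters' processing notes name kallisto, Salmon 1.4, Trimmomatic 0.39, FastQC, DESeq2 1.42.0 and build ce11, without roles. Counting is not stated to use strand, so genes that overlap or lie opposite each other are uncertain.

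From these files, estimated counts were summed over 31973 transcripts to 19982 genes with the Ensembl annotation of WBcel235, and rounded. Of the transcripts, 31832 matched by name and 138 by sequence name, and 3 with at most 9.17e-05% of a library's counts were left out. Genes passing filterByExpr were tested with edgeR 4.0.16 (quasi-likelihood test, TMM, Benjamini-Hochberg adjustment, threshold 0.05) in R 4.3.3. The parental fit held the 21 wild parental libraries, 1 term per group, with 14 residual degrees of freedom. The F1 fit and the allele fit (emase-zero counts, with library as a term) each held 6 libraries and had 4. The interaction was fitted to the 6 parental and 6 F1 libraries together.

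Tested on simulated data with known changes, the parental fit recovered 77 of 100 genes changed 2-fold and 91 of 100 changed 4-fold, the F1 fit 58 and 78, and the allele fit 57 and 81. Unchanged genes called in these runs numbered 15 in the parental fit, 22 in the F1 fit and 11 in the allele fit. The shares of fragments matching a gene alone came from the deposited fragment counts.

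Lists of genes and the genes named were chosen with earlier results of these data known. Named were, per direction, the 6 genes with the largest difference (at least 30 counts over the lower strain's libraries, 5 CPM in the higher strain), the 4 highest among genes at 0 in one strain, the 2 members of each list with the largest difference (at least 1 CPM in the higher strain), all called with groups that did not overlap, and all genes of the list of known variable genes. Other genes were named after their values were seen, as members of the same list or paralogs. The alternatives were other size factors, DESeq2, no low-count filter, other sets of libraries, a replicate block, allele-aware totals, effective lengths and leaving out each library.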

Additional observations from a re-analysis of the deposited data

Results flagged for a closer look

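55 genes were called in opposite directions in parents and hybrids, with the difference between these contrasts also called. Of these, 24 were higher and 31 lower in ECA701 parents. Without ECA722 x N2 F1 replicate 1 the count was 908, of which 836 were higher and 72 lower in ECA701 parents. Ranked by the smaller of the 2 sizes with all 6 F1 libraries, the first gene was abhd-11.1, of a family of hydrolases. It stood at 3.54 in parents and -2.26 in F1 worms (adjusted p of the difference = 7.34e-04, edgeR). The lectin gene clec-141 followed with 2.54 in parents and -2.10 in F1 worms (0.0086). The collagen genes col-7 and col-62 went the other way, at -1.84 and -1.67 in parents and 1.80 and 1.17 in F1 worms (8.80e-06 and 1.25e-04). mps-2, a potassium channel subunit gene, averaged 0.00441 CPM in ECA701 and 4.79 CPM in ECA722 parents, and was higher by 0.66 in the ECA701 cross. The difference between its contrasts was -10.14 (adjusted p = 1.40e-09), against 5.79 for abhd-11.1. The ECA701 mean of mps-2 lies below the 0.0144 CPM that 3 counts equal, so the size of its difference is uncertain.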

How the results depend on the processing

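The number of genes called between ECA701 and ECA722 parents was 8256. It was 8228 with DESeq2's size factors, 8169 with DESeq2's test, 8659 without the low-count filter, 8406 with the 6 libraries alone, 7825 with all 45, 8650 with allele-aware totals, 8162 with effective lengths and 7436 to 8043 when 1 library was left out. With the summed msp level as a covariate, added after the data were seen, it was 5408, with 2493 higher, 552 of at least 2-fold higher, and 9.20% of the middle autosomal genes differing at least 2-fold. Calls higher in ECA701 then made up 46.1% of all calls, against 52.2% in the fit given above. They were also the minority with all 45 libraries (47.8%) and with the 6 libraries alone (49.3%), and 51.4% to 53.2% with the other settings. Replicate numbers were not tied to a batch or plate by the labels. Same-numbered libraries correlated at 0.36, 0.03 and -0.31 in their deviations. ECA701 replicate 2 with ECA722 replicate 3 gave 0.33, and ECA701 replicate 3 with ECA722 replicate 2 gave 0.24. The remaining differently numbered pairs gave -0.36 to 0.04. Equal numbers thus do not pair the samples throughout. Whether the libraries pair under other numbers was not tested. A block by these same numbers gave 8480 calls in parents and 1266 in F1 worms, 668 higher, 598 lower and 188 at least 2-fold lower. Leaving out 1 F1 library gave 1220 to 4855 calls, 585 to 2081 higher, 635 to 2774 lower and 192 to 1323 at least 2-fold lower. Allele calls numbered 458 to 532 when 1 library was left out, 236 to 280 of them lower, and 1136 with allele-specific reads alone (507 higher, 629 lower). Of 1558 values recomputed for 104 named genes, 1521 kept their direction and their side of the threshold, 25 lost their call, 1 gained one and 11 turned round. With allele-aware totals, nspc-10 stood at -0.30 and vit-4 at -0.32. With the msp covariate, spe-54 stood at -0.12, spe-11 at -0.30, mab-3 at -0.023, fipr-17 at -0.22, alg-3 at -0.10, cyc-2.2 at -0.48, elo-7 at -0.76, spe-39 at 0.046 and ppw-1 at 0.023. The cause was not tested. Of 780 recomputed counts of list members, 728 stayed within 1.5 times the value given. At these depths, 3 counts over the libraries of a strain equal 0.0144 CPM in ECA701 and 0.0140 CPM in ECA722, and lower levels were not detectable. Where the mean of a strain lies below these values, the size of a fold change is uncertain.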

Other observations

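Further families named by their symbols were counted after the values were seen. Small nematode-specific peptide genes leaned to ECA701 like the sperm genes: of 10 nspd genes, 8 were higher and 2 lower in ECA701 (median 1.55), and they summed to 78.1, 48.4 and 91.4 CPM in ECA701 and 32.8, 31.2 and 24.5 CPM in ECA722. Of 17 nspc genes, 13 were higher and 2 lower (median 1.49). Of 11 ssp genes, which encode small sperm-specific proteins, 9 were higher and none was lower in this test (median 1.36). With the msp covariate, 2 nspd genes were higher and 2 lower, 1 ssp gene was higher and 3 lower, and 7 nspc genes were higher and 2 lower. The nspd libraries followed the msp sum, with the lowest ECA701 value in replicate 2. The sdz genes leaned the other way, with 4 of 27 higher and 14 lower in ECA701 (median -0.97), and so did the skr genes, which encode Skp1-like partners of F-box proteins, with 4 of 19 higher and 10 lower (median -0.33). In F1 worms, 2 sdz genes were higher and none was lower of 28 (2 and 1 of 29 without ECA722 x N2 replicate 1), and 2 skr genes were higher and 2 lower of 18 (1 and 3 of 18 without it).

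Some genes with very large differences fell outside the rule for naming genes and were chosen after their values were seen. Their values between the crosses include ECA722 x N2 replicate 1. E02H4.8 (WBGene00194907, chromosome X, 14262802 to 14263573, minus strand) averaged 73.8 ± 7.40 CPM in ECA701 and 0.00926 ± 0.0160 CPM in ECA722 (SD, n = 3 each). The difference was 12.66 in parents and 12.34 between the crosses. Its ECA722 mean lies below the 0.0140 CPM that 3 counts equal, so the size of the parental difference is uncertain. hil-6, a linker histone gene on chromosome V, averaged 25.2 ± 1.61 CPM in ECA701 and 0.0322 ± 0.0312 CPM in ECA722, a log2 fold change of 9.50 ± 0.32 in parents and 7.41 between the crosses. pud-2.2 (WBGene00017490) and its identical copy pud-2.2 (WBGene00017500), beside the pud-1 genes, averaged 0.0103 ± 0.00922 CPM in ECA701 and 239 ± 4.46 CPM in ECA722 each. The log2 fold change of each was -14.32 ± 0.14 in parents and -2.62 between the crosses. Their ECA701 mean lies below the 0.0144 CPM that 3 counts equal, so the size of the parental value is uncertain.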
